A study of Arabidopsis thaliana with 47 samples.

Results

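The transcripts of 3 enzymes of sugar phosphate metabolism were followed through 12 treatment groups of Arabidopsis root protoplasts. They were AT5G41670 (PGD3) and AT1G64190 (PGD1), which both encode 6-phosphogluconate dehydrogenase, and AT1G78050 (PGM). Each was measured by 1 probe set, namely 249266_at for AT5G41670, 262323_at for AT1G64190 and 262180_at for AT1G78050. These probe sets were chosen by identifier, with earlier results of these data known, and make up 3 of the 22746 probe sets tested. The name table gives PGM as a phosphoglycerate/bisphosphoglycerate mutase, so this PGM is an enzyme of lower glycolysis and not the phosphoglucomutase that carries the same abbreviation.

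The groups came from 47 arrays in 3 arms. Cells with GR::bZIP1 and cycloheximide (CHX), an inhibitor of protein synthesis, gave 24 arrays, with 6 per group. Cells with GR::bZIP1 and no CHX gave 12 arrays, with 3 per group. Cells with the empty pBeaconRFP_GR vector and CHX gave 11 arrays, with 3 per group except 2 for KCl with DEX. GR::bZIP1 is the transcription factor bZIP1 joined to a glucocorticoid receptor domain, driven by the 35S promoter and present only transiently, and all groups carried a GR vector. Within each arm, nitrogen (N, 20 mM KNO3 with 20 mM NH4NO3 for 2 h) or 20 mM KCl was combined with dexamethasone (DEX, 10 µM in ethanol, which brings the fusion into the nucleus) or ethanol alone. Treatments were given in the order N, CHX, DEX. All cells were Col-0 root protoplasts from seedlings aged 10 days, digested for 4 h, transfected for 25 min, kept overnight and sorted for the vector's red fluorescence. Only the bZIP1 cells with CHX carry a Biorep label, 1 or 2, with 3 treatment replicates of each group in each. Treatment replicates are not stated to be separate cultures, so p-values measure the spread between arrays.

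6-Phosphogluconate dehydrogenase carries out the second NADPH-forming step of the oxidative pentose phosphate pathway and releases ribulose 5-phosphate and carbon dioxide. In roots, where there is no photosynthetic electron flow, this pathway is a source of reductant for nitrite reduction and glutamate synthesis in plastids. In Arabidopsis, PGD1 and PGD3 are found in plastids and cytosol, and the remaining isoform, PGD2, in cytosol and peroxisomes. Phosphoglycerate mutase moves the phosphate group within phosphoglycerate on the way from triose phosphates to pyruvate. All values are log2 signals named GCRMA in the submitters' processing notes, and an effect is a difference of group means on that scale. Array medians lay between 2.92 and 3.19. The lowest value was 2.298 in bZIP1 cells with CHX, 2.303 in those without CHX and 2.287 in empty-vector cells, so the arms appear to have been summarised separately and their levels are not on 1 scale. Of 12 root cell type markers, 3 could be matched by name (EXPA7 of root hairs, CO2 and PEP of cortex). CO2 was at the floor on all 47 arrays, and EXPA7 and PEP reached no more than 3.06 and 2.83. None of the 6 listed green tissue markers could be matched, and those were not analysed here.

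With CHX, the transcripts of both 6-phosphogluconate dehydrogenases were higher after N than after KCl. In bZIP1 cells AT5G41670 averaged 7.13 ± 0.81 with N and 6.31 ± 0.52 with KCl (SD, n = 12 each), and AT1G64190 averaged 7.31 ± 0.50 with N and 6.52 ± 0.50 with KCl (SD, n = 12 each). The rises came to 1.77-fold and 1.73-fold. PGM averaged 6.74 ± 0.50 with N and 6.05 ± 0.47 with KCl (SD, n = 12 each), a difference of 1.61-fold that fell just short of the threshold. Without CHX, the N and KCl means of the same 3 probe sets differed by less than 0.1 on the log2 scale. In bulk cells, less of a transcript per cell and fewer cells that hold it cannot be told apart.

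**Figure D1:**
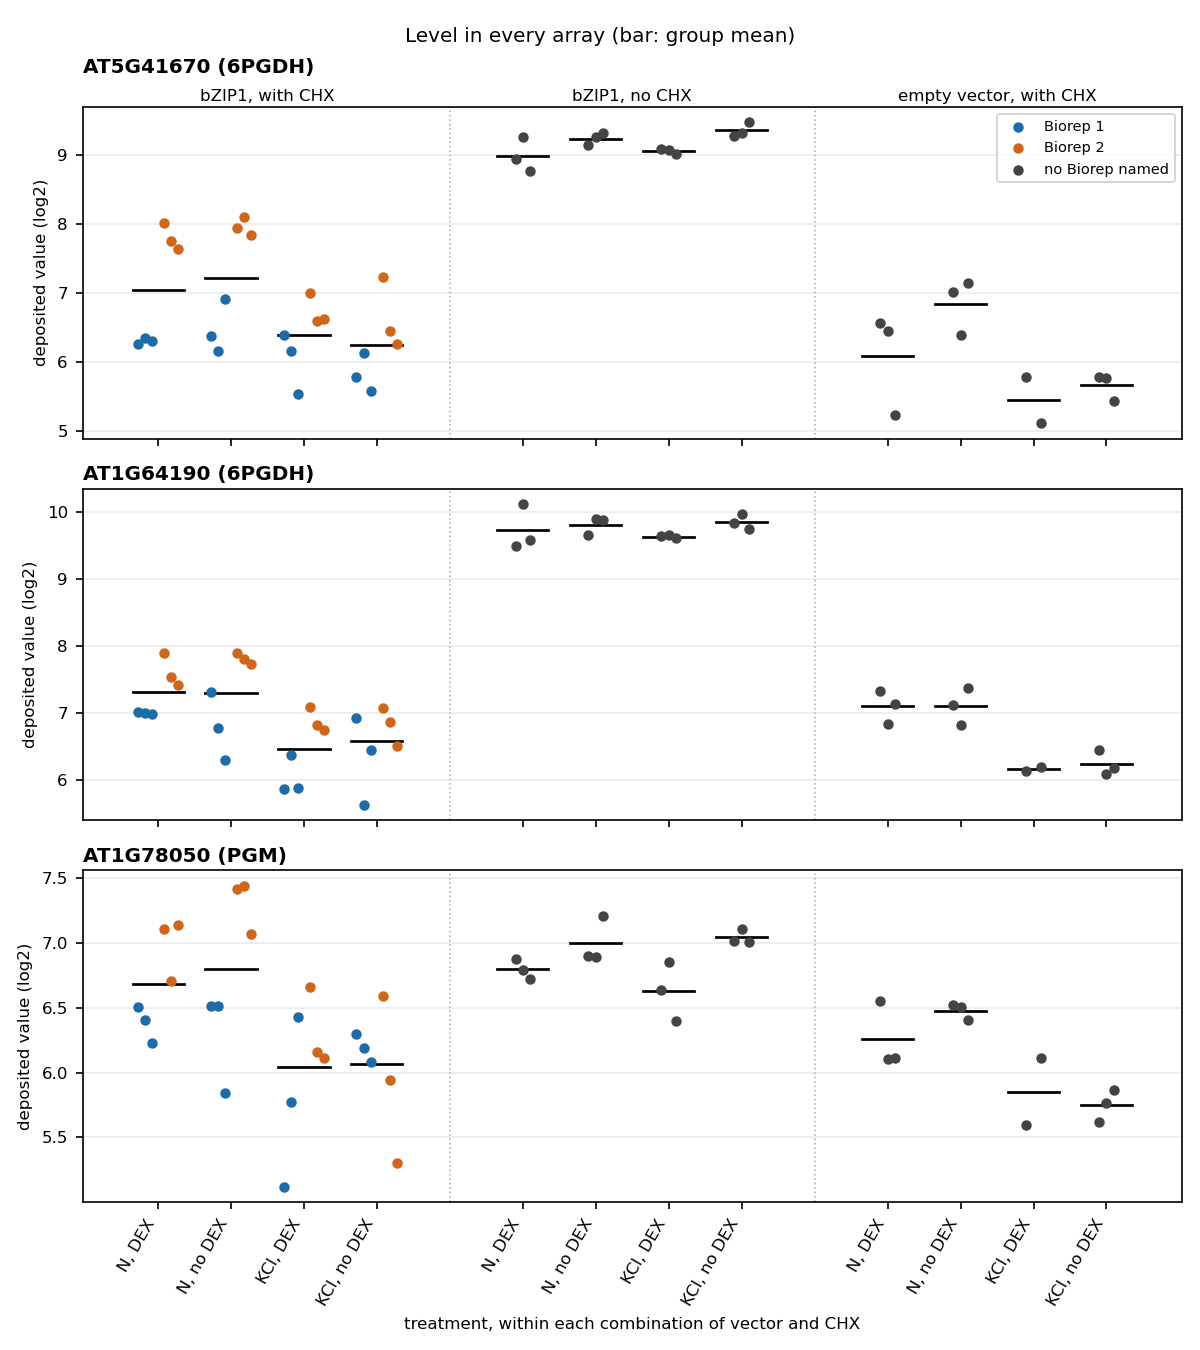
Deposited log2 value of each array (points, coloured by Biorep where the labels name one) and group mean (bars) for the 3 probe sets, with a panel for each and the N groups left of the KCl groups in each arm. In both arms with CHX the N means lie above the KCl means, while in bZIP1 cells without CHX the N and KCl points are intermixed. The arms are not on 1 scale.

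The levels of AT5G41670 in bZIP1 cells with CHX were as follows. With N and DEX, Biorep 1 gave 6.26, 6.34 and 6.29, and Biorep 2 gave 8.01, 7.75 and 7.63. With N and no DEX, Biorep 1 gave 6.37, 6.16 and 6.92, and Biorep 2 gave 7.94, 8.10 and 7.84. Arrays of Biorep 2 therefore stood above those of Biorep 1 in both N groups, with no overlap. With KCl and DEX, Biorep 1 gave 6.40, 6.16 and 5.53 and Biorep 2 gave 6.99, 6.59 and 6.62. With KCl and no DEX, Biorep 1 gave 5.78, 6.13 and 5.58 and Biorep 2 gave 7.22, 6.45 and 6.26. Biorep 2 was again above Biorep 1 in both KCl groups. Over all arrays the N and KCl groups overlapped, but each of the 12 N arrays was above the mean of the KCl arrays of its own Biorep and DEX treatment.

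AT1G64190 also had higher medians with N than with KCl at either DEX treatment. Its lowest, median and highest values were 6.99, 7.22 and 7.90 with N and DEX, and 6.299, 7.53 and 7.89 with N and no DEX. They were 5.86, 6.56 and 7.08 with KCl and DEX, and 5.62, 6.69 and 7.07 with KCl and no DEX. Of the 12 N arrays, 7 lay above every KCl array, and 11 lay above the KCl mean of their own Biorep and DEX treatment. The single exception was a Biorep 1 array with N and no DEX, at 6.299. PGM ran from 6.22 through 6.61 to 7.14 with N and DEX, and from 5.84 through 6.79 to 7.44 with N and no DEX. It ran from 5.12 through 6.14 to 6.66 with KCl and DEX, and from 5.30 through 6.14 to 6.59 with KCl and no DEX. Here 6 of the 12 N arrays lay above every KCl array and 11 lay above the matching KCl mean.

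The N effect in bZIP1 cells with CHX was 0.82 ± 0.14 (SE; 95% interval 0.53 to 1.12) for AT5G41670, with an adjusted p of 0.00322 by limma. It was 0.79 ± 0.14 (0.50 to 1.07) for AT1G64190, with a limma adjusted p of 0.00314. For PGM it was 0.69 ± 0.18 (0.31 to 1.06), with a limma adjusted p of 0.0509. A probe set is called where the Benjamini-Hochberg adjusted p over all 22746 is below 0.05, and 2 of the 3 were called, against 0.862% of all probe sets called higher and 2.02% called in either direction. Ordered by the size of the rise, the 3 stood at places 24, 29 and 35 of 22746. Because the 3 were chosen with earlier results of these data known, such shares and places describe them and are not a test.

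The N effect was larger by value in Biorep 2 than in Biorep 1 for all 3, though no difference between the Bioreps was called. The N effect of AT5G41670 was 0.46 in Biorep 1 and 1.19 in Biorep 2, that of PGM was 0.35 in Biorep 1 and 1.02 in Biorep 2, and that of AT1G64190 was 0.71 in Biorep 1 and 0.86 in Biorep 2. The difference, Biorep 2 minus Biorep 1, was 0.73 ± 0.25 for AT5G41670 and 0.67 ± 0.31 for PGM, both with an adjusted p of 0.937 by limma, and 0.15 ± 0.28 for AT1G64190, with an adjusted p of 1.00 by limma. Of the 3, 2 had an unadjusted p below 0.05, and 0.022% of all probe sets were called. The calls of both dehydrogenases were lost under several other settings. By limma, the adjusted p was 0.0575 for each in Biorep 2 alone, 0.686 and 0.563 in Biorep 1 alone, and 0.331 and 0.191 with treatment replicates averaged, for AT5G41670 and AT1G64190 in that order. Leaving out treatment replicate 2 or 3 also ended both calls, with adjusted p of 0.0825 and 0.224 for AT5G41670 and 0.144 and 0.0668 for AT1G64190 by limma. Without treatment replicate 1 both were called, with adjusted p of 0.0360 and 0.0397 by limma.

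**Figure D2:**
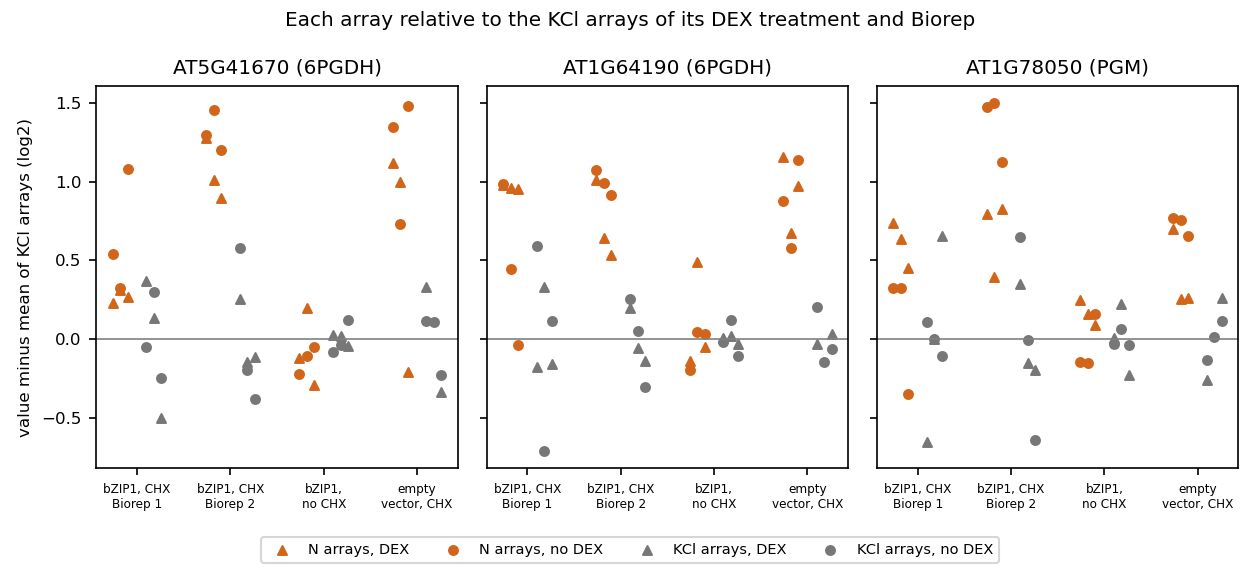
Each array's log2 value minus the mean of the KCl arrays of the same arm, DEX treatment and Biorep, with N arrays (orange) left of KCl arrays (grey), triangles for DEX and circles for no DEX. All 6 Biorep 2 arrays with N lie above 0 for each probe set, and for AT5G41670 the N arrays of Biorep 1 lie lower than those of Biorep 2 in all cases but a single array at 1.08.

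The empty-vector cells, which carried no bZIP1 fusion, gave another set of arrays with CHX. AT5G41670 measured 6.56, 6.44 and 5.23 with N and DEX and 7.01, 6.39 and 7.14 with N and no DEX, against 5.78 and 5.11 with KCl and DEX and 5.78, 5.77 and 5.43 with KCl and no DEX. Of its 6 N arrays, 5 lay above every KCl array, and the array at 5.23 lay among them. AT1G64190 measured 7.33, 6.84 and 7.14 with N and DEX and 7.12, 6.82 and 7.38 with N and no DEX, against 6.13 and 6.20 with KCl and DEX and 6.45, 6.09 and 6.18 with KCl and no DEX. Its N and KCl arrays did not overlap, and the share of all probe sets without overlap was not counted. PGM measured 6.55, 6.11 and 6.11 with N and DEX and 6.52, 6.51 and 6.41 with N and no DEX, against 5.59 and 6.11 with KCl and DEX and 5.62, 5.76 and 5.87 with KCl and no DEX. Of its 6 N arrays, 4 lay above every KCl array.

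The N effects in empty-vector cells were 0.91 ± 0.29 for AT5G41670, 0.90 ± 0.13 for AT1G64190 and 0.57 ± 0.12 for PGM (SE). None was called by limma, with adjusted p of 0.448, 0.0675 and 0.209. All 3 had an unadjusted p below 0.05, as did 1754 of all 22746 probe sets. AT1G64190 was called with treatment replicate number as a block (0.96, adjusted p 0.0440 by limma) and when only probe sets with a mean over 4 were tested (0.90, adjusted p 0.00940 by limma). The value of PGM was 0.32 without treatment replicate 1 and 0.78 without treatment replicate 3. In this arm 0.163% of all probe sets were called, and the number called ran from 6 to 689 over the other settings tried. By size of the rise, the 3 stood at places 22, 23 and 101 of 22746. The N effect in bZIP1 cells minus that in empty-vector cells was -0.088 ± 0.26 for AT5G41670 (95% interval -0.61 to 0.44), -0.11 ± 0.21 for AT1G64190 (-0.54 to 0.31) and 0.12 ± 0.26 for PGM (-0.40 to 0.64), each with an adjusted p of 1.00 by limma. None of the 3 had an unadjusted p below 0.05, and 0.0747% of all probe sets were called. Empty-vector arrays carry no Biorep label, so Biorep cannot be told apart from vector in these differences.

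In bZIP1 cells without CHX no N effect of the 3 was called. AT5G41670 measured 8.93, 9.25 and 8.77 with N and DEX and 9.14, 9.25 and 9.31 with N and no DEX, against 9.08, 9.08 and 9.01 with KCl and DEX and 9.28, 9.32 and 9.48 with KCl and no DEX. AT1G64190 measured 9.49, 10.12 and 9.58 with N and DEX and 9.65, 9.89 and 9.88 with N and no DEX, against 9.64, 9.65 and 9.60 with KCl and DEX and 9.83, 9.97 and 9.74 with KCl and no DEX. PGM measured 6.88, 6.79 and 6.72 with N and DEX and 6.90, 6.89 and 7.20 with N and no DEX, against 6.64, 6.85 and 6.40 with KCl and DEX and 7.01, 7.11 and 7.01 with KCl and no DEX. N and KCl arrays overlapped for all 3, and the highest single value was that of an N array for AT1G64190 and PGM but of a KCl array for AT5G41670.

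The N effects without CHX were -0.098 ± 0.080 (95% interval -0.28 to 0.086) for AT5G41670, 0.031 ± 0.11 (-0.22 to 0.28) for AT1G64190 and 0.059 ± 0.086 (-0.14 to 0.26) for PGM. None of the 3 was called by limma or had an unadjusted p below 0.05, and 0.0879% of all probe sets were called in this arm. The upper limits of these intervals lie below the N effects measured with CHX. The difference in the N effect itself, with CHX minus without, was 0.92 ± 0.25 (0.42 to 1.43) for AT5G41670, 0.76 ± 0.20 (0.35 to 1.17) for AT1G64190 and 0.63 ± 0.25 (0.13 to 1.13) for PGM. Each had an unadjusted p below 0.05, and none passed the adjustment over all probe sets, with adjusted p of 0.130, 0.128 and 0.513 by limma, where 0.343% of all probe sets were called. The labels do not say whether the cells without CHX came from the same Bioreps as those with CHX. Biorep therefore cannot be told apart from CHX in this difference.

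**Figure D3:**
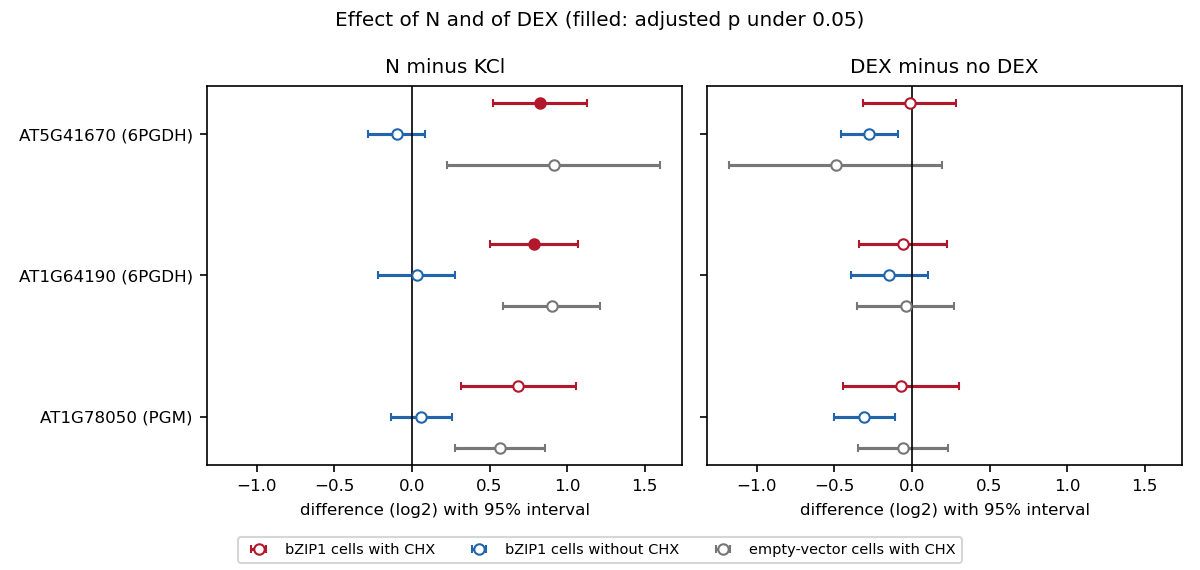
N effect (left) and DEX effect (right) of the 3 probe sets with 95% intervals from limma, in bZIP1 cells with CHX (red), bZIP1 cells without CHX (blue) and empty-vector cells with CHX (grey), filled where the adjusted p is below 0.05. The N effects with CHX lie between 0.57 and 0.91, those without CHX between -0.098 and 0.059, and no DEX effect is filled.

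The deposited levels also differed by value between the bZIP1 arms with and without CHX. In bZIP1 cells AT5G41670 averaged 6.72 with CHX and 9.16 without, and AT1G64190 averaged 6.91 with CHX and 9.75 without. These are differences of -2.44 and -2.84, and 1.66% and 0.80% of all probe sets showed a difference as low or lower. PGM averaged 6.40 with CHX and 6.87 without, a difference of -0.47, which 25.0% of probe sets matched or passed. After quantile normalization over all 47 arrays the differences were -2.92, -3.51 and -0.49. No test is given, because the arms are not on 1 scale and Biorep cannot be told apart from CHX.

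DEX, which sends GR::bZIP1 to the nucleus, did not change any of the 3 probe sets past the threshold in any arm. In bZIP1 cells with CHX the DEX effects were -0.015 ± 0.14 for AT5G41670 (95% interval -0.31 to 0.29), -0.056 ± 0.14 for AT1G64190 (-0.34 to 0.23) and -0.071 ± 0.18 for PGM (-0.44 to 0.30). None was called by limma or had an unadjusted p below 0.05, in an arm where DEX called 6.16% of all probe sets. In empty-vector cells the effects were -0.49 ± 0.29, -0.041 ± 0.13 and -0.059 ± 0.12, again with none called and none at an unadjusted p below 0.05, while 1.05% of all probe sets were called. Without treatment replicate 3 the value of AT5G41670 was -0.096.

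Without CHX the DEX means of bZIP1 cells were the lower ones for all 3. AT5G41670 averaged 9.02 ± 0.16 with DEX and 9.30 ± 0.11 without (SD, n = 6 each), and the arrays overlapped. PGM ran from 6.40 to 6.877 with DEX and from 6.889 to 7.20 without, so its 6 DEX arrays all lay narrowly below its 6 arrays without DEX. The share of all probe sets separated in this way was not counted. The DEX effects were -0.28 ± 0.080 for AT5G41670, -0.15 ± 0.11 for AT1G64190 and -0.31 ± 0.086 for PGM (SE). With limma adjusted p of 0.118, 0.720 and 0.102 none was called, in an arm where DEX called 4.29% of all probe sets, and 2 of the 3 had an unadjusted p below 0.05. When only probe sets with a mean over 4 were tested, AT5G41670 and PGM were called, with adjusted p of 0.0497 and 0.0352 by limma. The share of probe sets called under this filter is not given here. Over the other settings tried, the number called for DEX in this arm ran from 199 to 1496. The DEX effect with CHX minus without was 0.26 ± 0.25, 0.090 ± 0.20 and 0.24 ± 0.25, with adjusted p of 0.834, 0.983 and 0.868 by limma, where 4.46% of all probe sets were called. The DEX effect in bZIP1 cells minus that in empty-vector cells was 0.48 ± 0.26, -0.016 ± 0.21 and -0.012 ± 0.26, with adjusted p of 0.534, 1.00 and 1.00 by limma, where 4.53% were called. Without treatment replicate 3 the difference between bZIP1 and empty-vector cells was 0.14 for AT5G41670. In neither difference did any of the 3 have an unadjusted p below 0.05. Biorep cannot be told apart from CHX in the former or from vector in the latter.

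The N effect was also measured with and without DEX. In bZIP1 cells with CHX, the N effect of AT5G41670 was 0.67 ± 0.20 with DEX and 0.98 ± 0.20 without, with adjusted p of 0.234 and 0.0458 by limma. AT1G64190 had 0.85 ± 0.19 with DEX and 0.73 ± 0.19 without, with adjusted p of 0.0568 and 0.147 by limma. PGM had 0.64 ± 0.25 with DEX and 0.73 ± 0.25 without, with adjusted p of 0.473 and 0.353 by limma. So 0 of the 3 were called with DEX and 1 without, where 0.462% and 0.237% of all probe sets were called, and all 3 had an unadjusted p below 0.05 in both. The interaction, the N effect with DEX minus that without, was -0.32 ± 0.29, 0.12 ± 0.27 and -0.091 ± 0.36, and its adjusted p was 1.00 for each by limma. In the other arms the interactions ran from -0.55 to 0.21, and none of the 3 was called in any arm or had an unadjusted p below 0.05. The share of all probe sets called was 0.0% in both bZIP1 arms and 0.0352% in empty-vector cells.

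By group mean, both N groups stood above both KCl groups for all 3 in bZIP1 cells with CHX. For AT5G41670 and PGM the highest mean was that of N without DEX, at 7.22 ± 0.85 and 6.80 ± 0.63, and for AT1G64190 the N groups with and without DEX both averaged 7.31, with SDs of 0.37 and 0.64 (n = 6 each). Neighbours in this order overlapped in their arrays for all 3. In empty-vector cells both N groups again stood above both KCl groups. Among the 3, only AT1G64190 had a gap between neighbours, between N with DEX at 7.10 ± 0.25 and KCl without DEX at 6.24 ± 0.18 (SD, n = 3 each). How common such a gap is among all probe sets was not counted, and its N effect was not called in this arm.

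In bZIP1 cells without CHX the order of the means followed DEX instead, though no DEX effect of the 3 was called over all probe sets. The highest mean belonged to KCl without DEX, at 9.36 ± 0.10 for AT5G41670, 9.85 ± 0.12 for AT1G64190 and 7.04 ± 0.057 for PGM (SD, n = 3 each). N without DEX came next, at 9.23 ± 0.088, 9.81 ± 0.14 and 6.998 ± 0.18, and its arrays overlapped those of KCl without DEX. Both DEX groups stood below. For AT5G41670 the next was KCl with DEX at 9.06 ± 0.040, and for PGM N with DEX at 6.79 ± 0.079, each with no overlap with N without DEX. How many of all probe sets show such a gap between groups of 3 arrays was not counted. For AT5G41670 the lowest mean was that of N with DEX, yet its arrays (8.77 to 9.25) overlapped those of N without DEX (9.14 to 9.31). For AT1G64190 the next was N with DEX at 9.73 ± 0.34, which overlapped N without DEX.

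PGD2 (AT3G02360), the third 6-phosphogluconate dehydrogenase, was not called for N in any arm. Its N effect was 0.019 ± 0.066 in bZIP1 cells with CHX (95% interval -0.12 to 0.16), -0.026 ± 0.090 in those without CHX and 0.10 ± 0.12 in empty-vector cells, with adjusted p of 1.00, 1.00 and 0.876 by limma. Its interval with CHX ended below the lower limits of AT5G41670 and AT1G64190, and the difference between the isoforms was not tested. Its level was 8.15 ± 0.19 with CHX (SD, n = 24) and 9.05 ± 0.31 without (SD, n = 12) in bZIP1 cells. With DEX and no CHX it fell by 0.52 ± 0.090, with an adjusted p of 0.0150 by limma. That call was lost when any of the treatment replicates was left out, with adjusted p of 0.0657 to 0.275. The DEX effect of PGD2 with CHX was -0.051 ± 0.066, and the effect with CHX minus that without was 0.47 ± 0.12, with an adjusted p of 0.0150 by limma. This call was lost without replicate 2 or 3, without the Biorep covariate and with treatment replicates averaged, with adjusted p of 0.158, 0.203, 0.0566 and 0.119.

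The rest of the pathway could be read only in part, because 42 of 119 listed loci were matched by name. Glucose-6-phosphate dehydrogenases, the lactonases, the cofactor-independent phosphoglycerate mutases, the phosphoglucomutases and the 12 listed nitrate assimilation genes were among those that could not be matched and were not analysed here. The 4 matched genes of the non-oxidative pentose phosphate branch, which interconverts sugar phosphates, had a median N effect of 0.018 in bZIP1 cells with CHX. By limma, 0 of 4 were called for N in any arm, and 0, 1 and 0 of them had an unadjusted p below 0.05 in bZIP1 cells with CHX, those without CHX and empty-vector cells. With 2.02%, 0.0879% and 0.163% of all probe sets called in these arms, 0 of 4 is near the background. The 4 were the ribulose-phosphate epimerases AT3G01850 and AT1G63290, the transaldolase AT1G12230 and the ribose-phosphate isomerase family gene AT5G44520, which was at the floor on 23 of 24 arrays. AT1G22170, listed with PGM in the same mutase family, was also at the floor on 23 of 24 arrays of that arm.

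Over the 40 listed sugar phosphate probe sets other than the 3, the median N effect was 0.017 in bZIP1 cells with CHX, against 0.0 over all probe sets. Several of the 40 were at the floor in that arm. AT4G10260 was there on 24 of 24 arrays, AT1G06020, AT3G25960 and AT5G62840 on 23, and AT3G59480 and AT3G60440 on 22. Values at the floor hold an effect near 0, which draws the median of the 40 towards 0. Of the 40, 2 were called higher and 1 lower, where 0.862% of all probe sets were called higher and 2.02% in either direction. The fructokinase AT2G31390, which phosphorylates fructose, rose by 0.37 ± 0.090 (adjusted p 0.0369 by limma), and the pyruvate kinase AT5G63680, at the last step of glycolysis, rose by 0.39 ± 0.079 (adjusted p 0.0108 by limma). AT1G76550, a subunit of pyrophosphate-dependent phosphofructokinase, fell by 0.70 ± 0.10 (adjusted p 0.000765 by limma). Without the Biorep covariate the number called was 1 in place of 3. In bZIP1 cells without CHX and in empty-vector cells 0 of the 40 were called for N by limma, and 7 and 4 had an unadjusted p below 0.05. Only 0.0879% and 0.163% of all probe sets were called in those arms, so a count of 0 is near the background. By value, AT5G41670, AT1G64190 and PGM rose more with N than any of the 40 in bZIP1 cells with CHX. The fall of AT1G76550 was larger in size than the rise of PGM. The 3 were chosen with earlier results of these data known, so this order is not a test. The highest of the 40 was 0.39, and those at the floor could show little effect.

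**Figure D4:**
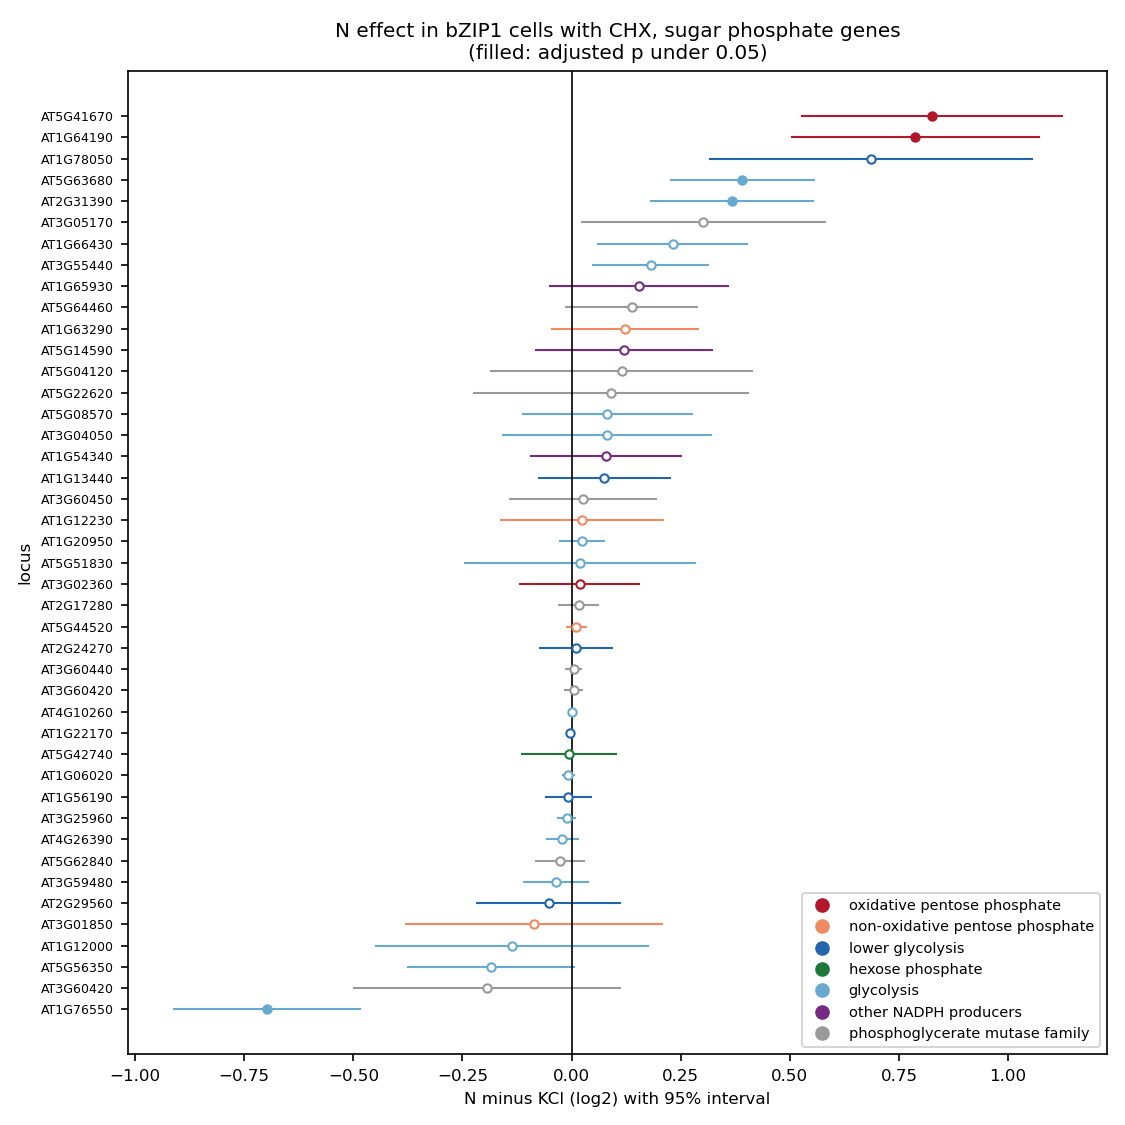
N effect in bZIP1 cells with CHX and 95% interval for the 43 listed sugar phosphate probe sets, coloured by list and filled where the adjusted p is below 0.05. AT3G60420 has 2 probe sets. AT5G41670, AT1G64190 and AT1G78050 lie at the top, at 0.82, 0.79 and 0.69, and AT1G76550 lies lowest at -0.70.

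DEX called other genes of these lists, at shares to be read against those of all probe sets. In bZIP1 cells without CHX 1 of the 40 was called higher and 4 lower, where 4.29% of all probe sets were called. AT2G31390 rose by 0.22 ± 0.034 (adjusted p 0.00849 by limma). Beside PGD2, those that fell were the phosphofructokinase subunits AT1G76550, by 0.79 ± 0.088, and AT1G12000, by 0.69 ± 0.096, and the NADP-dependent isocitrate dehydrogenase AT1G65930, another source of NADPH, by 0.55 ± 0.095, with adjusted p of 0.00168, 0.00521 and 0.0141 by limma. With CHX, DEX called 2 of the 40 higher and 1 lower in bZIP1 cells, a share near the 6.16% of all probe sets called there. The mutase family gene AT5G64460 rose by 0.49 ± 0.073 (adjusted p 8.79e-05 by limma), AT2G31390 rose by 0.33 ± 0.090 (adjusted p 0.0290 by limma) and the pyruvate kinase AT5G56350 fell by 0.32 ± 0.092 (adjusted p 0.0428 by limma). In empty-vector cells 0 of the 40 were called for DEX by limma and 2 had an unadjusted p below 0.05, where 1.05% of all probe sets were called. The median DEX effect of the 40, with those at the floor included, was 0.006 in bZIP1 cells with CHX and 0.0 in the other arms.

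The DEX effect with CHX minus without was called higher for 5 of the 40 and lower for none, where 4.46% of all probe sets were called in either direction. Beside PGD2, these were AT1G12000 (0.82 ± 0.23), AT1G65930 (0.56 ± 0.16), AT5G64460 (0.43 ± 0.13) and the phosphofructokinase subunit AT1G20950 (0.37 ± 0.092), with adjusted p of 0.0256, 0.0315, 0.0423 and 0.0121 by limma. AT1G20950 averaged 2.61 with CHX, near the floor of 2.298, and 3.62 without CHX, so a fall with CHX could hardly have shown. The DEX effect in bZIP1 cells minus that in empty-vector cells was called for 1 of the 40, AT5G63680, at -0.59 ± 0.15 (adjusted p 0.0116 by limma), where 4.53% of all probe sets were called.

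The 3 probe sets resembled each other in their group pattern. Across the 12 group means, each less the mean of its arm, Pearson's r was 0.90 between AT5G41670 and AT1G64190, 0.92 between AT5G41670 and PGM and 0.94 between AT1G64190 and PGM. PGD2 had an r of 0.32, 0.26 and 0.47 with AT5G41670, AT1G64190 and PGM. The points share arrays and hold the N effects given above, and the 3 were chosen with earlier results of these data known. So r describes them, carries no p and is not separate support. Correlations within groups were taken after removal of group means, and of Biorep means where there are any. For AT5G41670 with AT1G64190 r was -0.024 over the 24 arrays of bZIP1 cells with CHX, 0.72 over the 12 arrays of those without CHX and 0.26 over the 11 arrays of empty-vector cells. For AT5G41670 with PGM it was -0.014, 0.26 and -0.046 in the same arms, and for AT1G64190 with PGM 0.43, 0.14 and 0.16. PGD2 had within-group values of 0.73, 0.85 and 0.60 with AT5G41670, AT1G64190 and PGM in bZIP1 cells without CHX, and of -0.11 to 0.40 in the other arms. In bZIP1 cells without CHX, same-numbered treatment replicates deviated together (r over 0.1) in 14 of 18 pairs. That shared deviation was not removed from the within-group values.

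Among 3312 probe sets matched to 1 gene and with a group mean of 5 or more in every arm, those most like each of the 3 were named by the same r. For AT5G41670 they were the calmodulin-binding protein gene AT2G38800 (0.94), NET4B (0.93), AT1G26930 (0.93), AT5G10460 (0.93) and the FK506-binding protein gene AT5G48570 (0.93). For AT1G64190 they were the glycosyltransferase UGT87A2 (0.96), AT5G39590 (0.96), MAB1, a subunit of pyruvate dehydrogenase (0.95), AT4G08220 (0.95) and AT3G58610, ketol-acid reductoisomerase of branched-chain amino acid synthesis (0.94). For PGM they were AT3G58610 (0.98), AT5G25770 (0.97), the aldehyde dehydrogenase ALDH10A9 (0.96), UGT87A2 (0.94) and AT1G64190 itself (0.94). AT3G58610 and UGT87A2 stood on the lists of both AT1G64190 and PGM. In bZIP1 cells with CHX the N effect of AT3G58610 was 0.53, with an adjusted p of 0.00574 by limma, and that of AT5G48570 was 0.97, with an adjusted p of 0.00557 by limma. AT5G39590 was called in that arm, at 0.65, and in empty-vector cells, at 0.74, with adjusted p of 0.000878 and 0.00987 by limma. For N in bZIP1 cells with CHX, AT2G38800, AT1G26930, MAB1 and AT5G25770 were also called, at 0.20, 0.55, 0.305 and 0.20. Their adjusted p was 0.0119, 0.0354, 0.0175 and 0.0129 by limma. NET4B, AT5G10460, UGT87A2, AT4G08220 and ALDH10A9 were not called there, at 0.19, 0.26, 0.28, 0.32 and 0.23. The adjusted p of these ran from 0.0818 to 0.392 by limma.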

How the data were processed

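Transcripts were measured on 47 ATH1 arrays after amplification of RNA from sorted cells. The authors deposited 1 table of log2 values. Its log scale was inferred from its range, and per the submitters' processing notes GCRMA was used (version not given in the sources used here). Without the 64 control probe sets, 22746 remained for testing, of which 13436 were matched to 1 gene through a supplied name table. Arrays hold no counts, so their number limits the precision.

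Two-sided moderated tests were run in R 4.3.3 with limma 3.58.1, using lmFit, contrasts and eBayes, with 1 fit of 4 group means per arm and Biorep as a covariate in bZIP1 cells with CHX. For contrasts that span arms, the 47 arrays were fitted together, and Biorep cannot be told apart from vector or CHX there. Adjustment was by Benjamini-Hochberg over all 22746 probe sets, with a threshold of 0.05. The test of the difference between Bioreps and the quantile normalization over 47 arrays were added after values were seen. Scripts were tested on simulated data.

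The 3 probe sets and the gene lists were chosen with earlier results of these data known, and 3 of the lists date from after the name table had been read. Named genes are the 3, their family members, up to 6 called genes per list and contrast with the lowest adjusted p, and for each of the 3 the 5 genes with the most similar group means. Same-numbered treatment replicates deviated together (r over 0.1) in 16 of 36, 14 of 18 and 8 of 15 pairs in bZIP1 cells with CHX, those without CHX and empty-vector cells, and were not blocked. Same-Biorep arrays did so in 108 of 108 pairs. Other settings tried were a filter on low means, quantile normalization within the fit, a trended robust prior, a replicate block, no Biorep covariate, each Biorep alone, averaged treatment replicates and leaving out each replicate.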

Additional observations from a re-analysis of the deposited data

How the results depend on the processing

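The N effects of AT5G41670, AT1G64190 and PGM stayed above 0 in both arms with CHX under all settings tried. In bZIP1 cells with CHX the calls of AT5G41670 and AT1G64190 were lost without the Biorep covariate (0.82, adjusted p 0.394, and 0.79, adjusted p 0.147, by limma), in Biorep 1 alone (0.46 and 0.71), in Biorep 2 alone (1.19 and 0.86) and with treatment replicates averaged (0.82 and 0.79). With each replicate left out in turn they ran from 0.65 to 0.96 and from 0.75 to 0.82. PGM was called there with probe sets over a mean of 4 (0.69), after quantile normalization (0.67) and with the trended prior (0.69), with adjusted p of 0.0109, 0.0460 and 0.0489 by limma. AT1G64190 in empty-vector cells was called with the filter (0.90, adjusted p 0.00940) and with treatment replicate number as a replicate block (0.96, adjusted p 0.0440, by limma). The block changed no other call of the 3. The cause of these changes was not tested.

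Values that changed sign were all uncalled. With 1 replicate left out, the N effect without CHX ran from -0.052 to 0.13 for AT1G64190 and from -0.040 to 0.16 for PGM. The N effect of bZIP1 minus empty vector ran from -0.18 to 0.015 for AT5G41670, -0.25 to 0.0008 for AT1G64190 and -0.043 to 0.35 for PGM. Biorep 2 minus Biorep 1 ran from -0.013 to 0.26 for AT1G64190. DEX effects with CHX ran from -0.064 to 0.043 for AT5G41670, -0.16 to 0.086 for AT1G64190 and -0.31 to 0.072 for PGM, and were 0.0078 for AT5G41670 in Biorep 1 alone and 0.022 for PGM in Biorep 2 alone. The DEX effect of bZIP1 minus empty vector ran from -0.082 to 0.11 for AT1G64190 and -0.17 to 0.097 for PGM, and was 0.042 for AT1G64190 with the block. With CHX minus without it ran from -0.12 to 0.43 for PGM. Interactions ran from -0.044 to 0.12 for AT5G41670 without CHX, for AT1G64190 from -0.012 to 0.37 with CHX, -0.066 to 0.29 without it and -0.17 to 0.25 with the empty vector, and from -0.34 to 0.037 for PGM with CHX. They were -0.26 for AT1G64190 in Biorep 2 alone and 0.51 for PGM in Biorep 1 alone. The N effect of PGD2 (AT3G02360) with CHX ran from -0.016 to 0.054, and was -0.0059 in Biorep 2 alone.

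Counts of called probe sets moved widely. For N, bZIP1 cells with CHX gave 459 (6 to 676 over the other settings), bZIP1 cells that had no CHX gave 20 (5 to 89), and the empty vector gave 37 (6 to 689). For DEX they were 1401 (174 to 1582), 975 (199 to 1496) and 238 (8 to 784). The differences between arms called 78 (39 to 123) and 17 (1 to 177) for N and 1014 (509 to 1201) and 1031 (555 to 1180) for DEX. Interactions called 0 (0 to 1), 0 (0 to 8) and 8 (0 to 584), and the Biorep difference 5 (1 to 31).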
